A study of Mus musculus with 12 samples.

Results

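The organic ion and drug transporters described here are the protein-coding genes whose symbol begins with *Slc22a*, *Slc47a*, *Slco*, *Abcb*, *Abcc* or *Abcg* followed by a digit. Of the 55401 gene identifiers measured in mouse kidney, 67 belonged to this set, and another 2 that fit the symbol (*Slco6b1* and *Slc22a13b-ps*) were left out because the annotation does not class them as protein-coding. The kidneys came from male C57BL6 mice aged 8 weeks. 6 mice received SK-124 at 40 mg/kg and 6 received its vehicle, 15% 2-hydroxypropyl-beta-cyclodextrin, in each case as 1 intraperitoneal injection. SK-124 is a small molecule that inhibits the salt-inducible kinases SIK2 and SIK3, which lie downstream of the parathyroid hormone receptor, and the comparison asks which kidney mRNAs differ after acute inhibition. The labels name no genetic modification, and the sources do not give the time between injection and collection of these kidneys.

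The proximal tubule secretes drugs, toxins and waste metabolites in 2 steps. Carriers of the basolateral membrane take organic anions or cations up from blood, and carriers or ATP-driven pumps of the apical membrane pass them into the tubular fluid. Other members of the same families run the opposite way and reclaim urate or carnitine from the fluid. The SLC22 family holds the organic anion transporters (OATs), the organic cation transporters (OCTs) and the carnitine carriers (OCTNs). The SLC47 family holds the MATE cation exchangers, the SLCO family the organic anion transporting polypeptides (OATPs), and the ABC families the P-glycoproteins, the multidrug resistance-associated proteins (MRPs) and the breast cancer resistance protein.

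Many of these genes are close copies of each other, which matters for any count of reads. The 67 genes lie on 18 chromosomes, and 11 of them lie on chromosome 19, where 8 *Slc22a* genes stand within 955 kb (chr19:7673061-8628299, GRCm38). The most alike members were *Slc22a28* and *Slc22a30*, whose coding sequences were 98.8% identical over 1656 aligned bases with an identical run of 431 bases. *Slc22a27* and *Slc22a29* were 97.3% identical, *Slc22a5* and *Slc22a21* 90.5%, and the P-glycoprotein genes *Abcb1a* and *Abcb1b* 88.1%. The first 120 coding bases of the chromosome 19 group (GENCODE M21, all on the minus strand) are shown because they carry this likeness, with capitals at the 18 positions where the 4 sequences are not all the same.
Slc22a28: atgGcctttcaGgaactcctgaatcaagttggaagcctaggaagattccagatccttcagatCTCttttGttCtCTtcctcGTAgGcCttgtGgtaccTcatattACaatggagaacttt
Slc22a30: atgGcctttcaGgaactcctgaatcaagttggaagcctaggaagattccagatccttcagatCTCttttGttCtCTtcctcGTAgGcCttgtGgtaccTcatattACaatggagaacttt
Slc22a27: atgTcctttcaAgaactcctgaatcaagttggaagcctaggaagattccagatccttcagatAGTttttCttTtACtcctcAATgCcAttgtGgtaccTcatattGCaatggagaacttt
Slc22a29: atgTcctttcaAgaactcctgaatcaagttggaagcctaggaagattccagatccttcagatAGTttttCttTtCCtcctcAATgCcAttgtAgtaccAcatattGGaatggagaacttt

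Over this stretch *Slc22a28* and *Slc22a30* had 0 differences, while *Slc22a27* differed from *Slc22a28* at 15 positions and *Slc22a29* at 17. The carnitine carrier gene *Slc22a5* and its neighbour *Slc22a21* on chromosome 11 are shown in the same way, since a change called in *Slc22a21* is reported here. Capitals mark the 11 positions of the first 120 coding bases at which they differ.
Slc22a5: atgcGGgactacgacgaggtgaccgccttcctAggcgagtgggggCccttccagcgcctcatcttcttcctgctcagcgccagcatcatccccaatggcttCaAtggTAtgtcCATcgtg
Slc22a21: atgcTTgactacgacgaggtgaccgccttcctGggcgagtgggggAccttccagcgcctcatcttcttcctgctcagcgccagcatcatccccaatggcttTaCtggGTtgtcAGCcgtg

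RSEM, the program that made the tables, divides reads that fit several genes by estimation and also gives a posterior standard deviation for each count. That deviation was 3.76% of the count for *Slc22a21*, 1.66% for *Abcb1a*, 1.15% for *Abcb1b* and 1.07% for *Slc22a28*, and these 4 were the tested members above 1%. For *Slc22a30* it was 0.822%, and for *Slc22a5* 0.0631%. The counts of these close copies are therefore given as estimates.

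Salt-inducible kinases hold the coactivators of CREB, a transcription factor that binds the cAMP response element, in the cytoplasm. The 250 bases before the RefSeq start sites (GRCm38.p6) were searched on both strands for the full element TGACGTCA and for its half-site TGACG, which the full element contains. Start-site windows were at hand for 53 of the 67 members. The full element was present in 1.55% of all 32851 windows and among members in *Abcg2* alone. The half-site was present in 17.8% of all windows and in 8 of 63 member windows, which belong to *Abcg2*, *Slc22a16*, *Slc22a17*, *Slc22a3*, *Slc22a5*, *Slco2b1* and *Slco6d1*. The windows below are those of the member with the full element, of 1 member with the half-site whose mRNA fell, and of a member that fell and a member that rose without either, with the matched letters in capitals.
Abcg2 (chr6:58640296-58640545, plus strand): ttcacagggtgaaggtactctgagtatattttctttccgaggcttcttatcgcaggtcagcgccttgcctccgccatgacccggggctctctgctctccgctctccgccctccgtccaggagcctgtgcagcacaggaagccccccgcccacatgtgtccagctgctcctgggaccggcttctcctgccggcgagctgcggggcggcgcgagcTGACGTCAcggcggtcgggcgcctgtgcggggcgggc
Slco2b1 (chr7:99711341-99711590, minus strand): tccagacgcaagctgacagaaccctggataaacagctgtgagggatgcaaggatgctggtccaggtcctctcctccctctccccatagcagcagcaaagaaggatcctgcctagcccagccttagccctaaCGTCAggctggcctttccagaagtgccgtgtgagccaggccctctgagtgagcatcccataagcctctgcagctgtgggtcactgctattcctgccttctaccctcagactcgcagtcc
Slc22a23 (chr13:34345219-34345468, minus strand): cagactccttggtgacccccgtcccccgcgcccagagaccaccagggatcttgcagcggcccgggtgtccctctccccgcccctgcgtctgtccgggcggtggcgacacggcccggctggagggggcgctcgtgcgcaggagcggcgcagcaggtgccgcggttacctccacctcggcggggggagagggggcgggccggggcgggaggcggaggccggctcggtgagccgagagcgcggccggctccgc
Slco4a1 (chr2:180455995-180456244, plus strand): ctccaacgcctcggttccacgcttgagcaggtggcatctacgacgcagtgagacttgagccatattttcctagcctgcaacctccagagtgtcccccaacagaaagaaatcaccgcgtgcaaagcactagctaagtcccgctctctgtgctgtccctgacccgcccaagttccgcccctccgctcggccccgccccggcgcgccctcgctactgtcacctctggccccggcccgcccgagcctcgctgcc

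The *Abcg2* element began at position -37 of 1 of the 3 listed start sites, which lies 56023 bases downstream of the outermost start of the gene in GENCODE M21. The *Slco2b1* window is also 1 of 3. These matches are letters in a window and not measured binding sites.

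Each mouse gave 1 library, and expected counts (reads assigned to genes by RSEM) summed to between 19244227 and 19771802. The 10 genes with the most counts took 39.9% to 43.2% of each vehicle library, 44.4% to 46.8% in SK-124-treated mice 1 to 3 and 38.6% to 40.2% in SK-124-treated mice 4 to 6. Those SK-124-treated mice were therefore also compared with vehicle as separate groups of 3. Both comparisons used the same 6 vehicle mice and reuse mice of the full comparison. Agreement between them is therefore not independent support. The libraries held abundant proximal tubule mRNA: 7 of 7 marker genes were tested, 1 rose (*Slc27a2*) and 0 fell, with a summed level of 10301 to 11187 CPM (counts scaled to library size with TMM factors) with vehicle and 9993 to 11883 with SK-124. Markers of liver and adrenal, organs that could be carried over, summed to at most 5.32 and 0.876 CPM, with the adrenal gene *Cyp21a1* at 0 in every mouse. Of 4 markers of the S3 segment, the last part of the proximal tubule, 2 rose with SK-124 (*Cyp7b1* and *Atp11a*) and 0 fell, and their sum was 1413 to 1729 CPM with vehicle and 1780 to 2169 with SK-124. Of 4 S1 and S2 markers, 1 fell (*Slc7a8*). In the marker lists of later nephron segments, 4 genes rose (*Cldn16*, *Aqp2*, *Slc26a4* and *Foxi1*) and 1 fell (*Slc4a1*), among contractile cells *Acta2* rose and *Pdgfrb* fell, the lymphocyte gene *Cd79a* fell, and of 3 blood markers 0 passed. Over all genes tested, 10.8% rose and 13.5% fell. In whole-kidney RNA fewer cells of a type and less RNA per cell cannot be told apart.

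Across the set, 46 of the 67 genes had enough counts to be tested. 13 of the 46 differed between SK-124 and vehicle at an FDR under 0.05, which is 28.3%, beside 24.4% of the 14159 genes tested in all (quasi-likelihood test of edgeR, adjusted by Benjamini and Hochberg's method over all genes). 5 members rose, where 10.8% of all genes did, and 8 fell, where 13.5% of all genes did. The median log2 fold change was -0.01 for the 46 members and -0.01 for all genes. In CPM, the 2 groups did not overlap in any mouse for 4 members, or 8.70%, and for 13.0% of all genes. In TPM, *Slco2b1* of these members stayed apart, while *Slco3a1*, *Slc22a23* and *Abcg1* overlapped. The called folds ran from 0.532 to 1.63. The balance of directions depended on the scaling: with library totals in place of TMM, 2 members rose and 11 fell, while the median of all genes moved to -0.12 and the calls over all genes to 778 higher and 3057 lower, against 1536 and 1918 with TMM. Tests on log2(TPM + 1) and on log2(TPM + 0.1), with medians of all genes at -0.11 and -0.14, called 0 members higher and 10 lower each. The 5 members that rose had positive log2 fold changes under these scalings too.

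**Figure D1:**
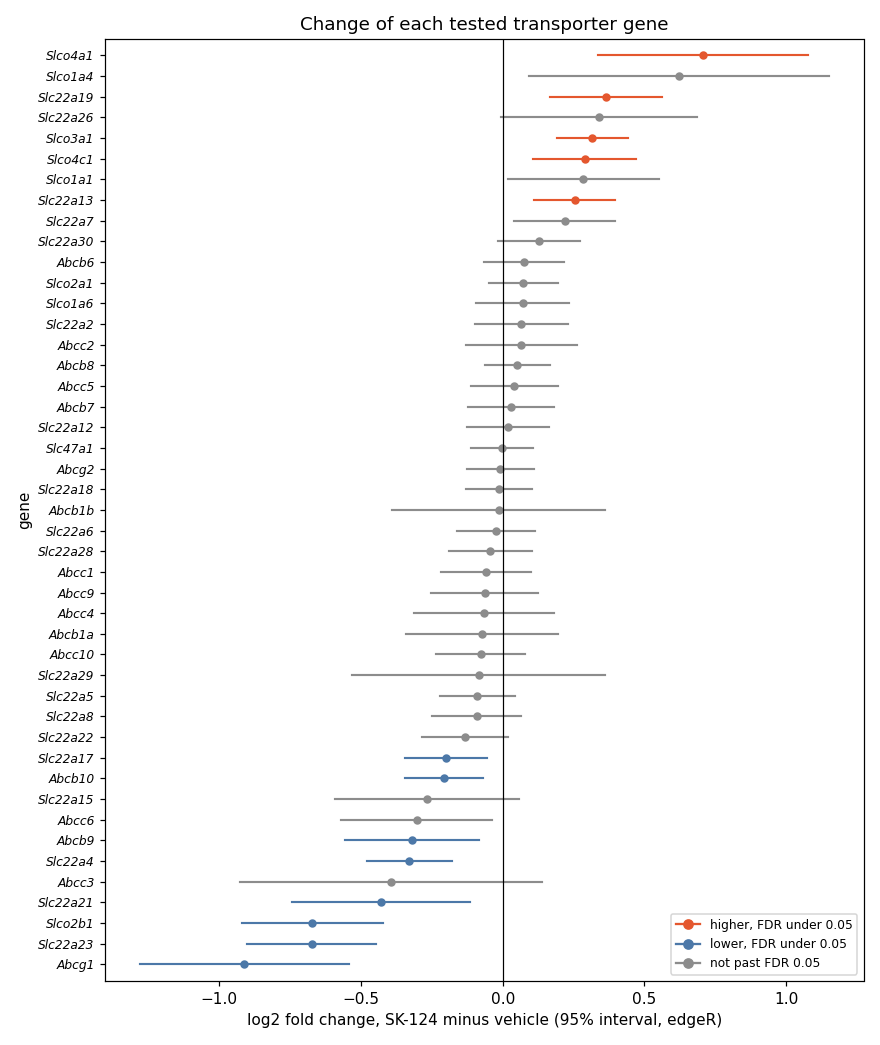
Log2 fold change of 45 of the 46 tested transporter genes (SK-124 minus vehicle, x axis) with its 95% interval from edgeR, ordered by size (y axis). The 5 red genes rose and the 8 blue genes fell at an FDR under 0.05, and the grey genes did not pass.

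Levels spanned more than 3 orders of magnitude. On the TPM scale, which allows for gene length, 10 genes made up 80.4% of the summed level of the 67. *Slc22a12* stood first with a mean of 598 TPM, and the others included *Slc22a18* with 218, *Slc22a6* with 196, *Slc47a1* with 136, *Slc22a2* with 131, *Slc22a8* with 120, *Slc22a7* with 98.1, *Abcg2* with 96.6 and *Slco3a1* with 52.3. The organic anion class alone held 51.7% of the vehicle total and the organic cation class 15.8%. All members together summed to 2254 to 2640 TPM in vehicle-treated mice and to 1969 to 2613 in SK-124-treated mice, and these ranges overlapped. The 21 untested genes reached at most 11 counts in any mouse, and 5 of them (*Slc22a16*, *Slco6c1*, *Abcb11*, *Slco6d1* and *Slc22a20*) were at 0 in all 12. Among partners, this left *Slc22a3* with at most 6 counts, *Slc47a2* and *Abcg5* with at most 4 and *Abcg8* with at most 2, so that a change in them was not detectable at this depth.

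**Figure D2:**
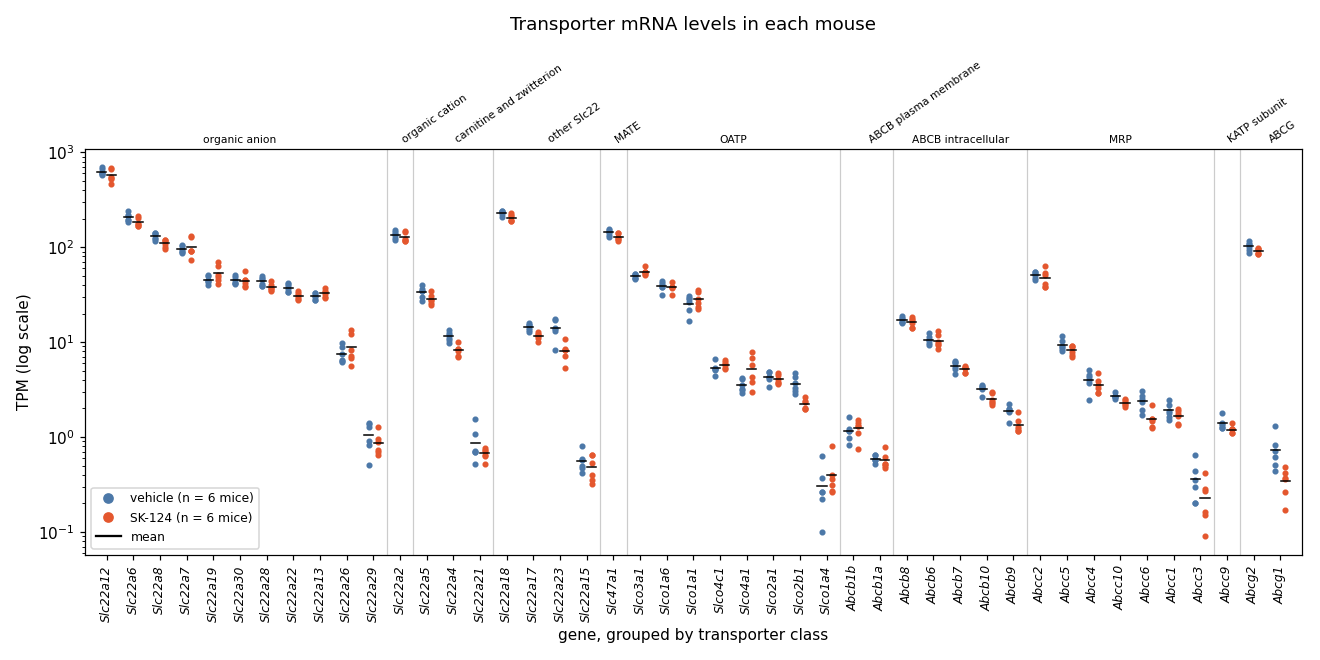
TPM in each mouse (log scale) for 45 of the 46 tested transporter genes, grouped by class and ordered by mean level within a class. Blue points are the 6 vehicle-treated mice, red points the 6 SK-124-treated mice, and the short lines are group means, which run from 626 TPM for *Slc22a12* with vehicle to under 1 for genes such as *Slc22a21* and *Abcg1*.

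The basolateral carriers that begin anion secretion did not pass the test with TMM scaling. *Slc22a6* encodes OAT1, which takes up organic anions in exchange for dicarboxylates. Its CPM was 745.5, 876.1 and 920.0 (lowest, median and highest) with vehicle and 747.4, 835.3 and 918.7 with SK-124. The ranges were nearly the same, and the log2 fold change had a 95% interval of -0.16 to 0.11. *Slc22a8*, which encodes OAT3, an uptake carrier of broad substrate range, had 428.0, 444.1 and 536.8 CPM with vehicle and 391.5, 416.2 and 523.6 with SK-124. 4 of the 6 SK-124-treated mice lay under the lowest vehicle mouse, but 1 was high, and the interval was -0.25 to 0.07 (FDR = 0.416, edgeR). With library totals *Slc22a8* passed as lower (log2 fold change -0.21, FDR = 0.0334, edgeR). On log2(TPM + 1) and log2(TPM + 0.1) it also passed as lower (-0.25 each, FDR = 0.0477 and 0.0479, limma). The difference between *Slc22a6* and *Slc22a8* within a mouse moved by 0.07 on the log2 scale (exact permutation p = 0.355, two-sided, 0.532 after adjustment over 6 pairs).

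Urate carriers are a further group of organic anion transporters. *Slc22a12* encodes URAT1, the apical carrier that reclaims urate, and its CPM was 1067, 1212 and 1307 with vehicle and 1092, 1278 and 1320 with SK-124. The 95% interval of its log2 fold change was -0.13 to 0.16, whose upper end is 1.12-fold. It overlaps *Nrxn2*, a gene on the opposite strand with a mean of 3.31 CPM, and the use of strand in counting is not given in the sources used here. *Slc22a13* encodes OAT10, an apical exchanger of urate and nicotinate. It rose from 50.1, 59.0 and 70.6 CPM with vehicle to 67.6, 70.2 and 74.7 CPM with SK-124. The SK-124 values were tightly grouped, and 3 of the 6 exceeded the highest vehicle mouse (log2 fold change 0.25 ± 0.07 SE, FDR = 0.0102, edgeR). In SK-124-treated mice 4 to 6 alone the call was lost (0.22, FDR = 0.102, edgeR). The call was also lost with library totals (0.14) and on both TPM scales (FDR up to 0.419, limma).

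*Slc22a19* encodes OAT5, an apical organic anion exchanger, and is the outermost gene of the chromosome 19 group. Its CPM was 73.0, 90.9 and 97.8 with vehicle and 90.8, 119.6 and 135.2 with SK-124, with 4 of 6 SK-124-treated mice above every vehicle mouse (log2 fold change 0.36 ± 0.09 SE, FDR = 0.00813, edgeR). It was the 1 gene called among the 7 tested in this group of 8 neighbours. With library totals the log2 fold change was 0.25 (FDR = 0.0605, edgeR), and on both TPM scales the call was lost too (FDR up to 0.240, limma). The near-identical pair gave intervals that included 0: -0.19 to 0.10 for *Slc22a28* and -0.02 to 0.27 for *Slc22a30*. *Slc22a7* encodes OAT2, a carrier of cyclic nucleotides and other anions. It had 165.5, 185.4 and 204.6 CPM with vehicle and 172.8, 217.4 and 252.1 with SK-124. 4 SK-124-treated mice exceeded the vehicle range, and the test missed the threshold (log2 fold change 0.22, 95% interval 0.04 to 0.40, FDR = 0.0697, edgeR). *Slc22a7* passed with DESeq2 (FDR = 0.0471), without SK-124-treated mouse 1 (0.27, FDR = 0.0159, edgeR) or mouse 4 (0.26, FDR = 0.0366, edgeR) and with SK-124-treated mice 4 to 6 alone (0.30, FDR = 0.0367, edgeR). Over the 11 tested organic anion genes, 2 rose, 0 fell and 9 did not pass with TMM, where 10.8% of all genes rose and 13.5% fell. With library totals and on both TPM scales these rises were lost, and *Slc22a8* and *Slc22a22* passed as lower. For *Slc22a22* the log2 fold change was -0.13 with TMM (FDR = 0.200, edgeR) and -0.25 with library totals (FDR = 0.00908, edgeR). On the TPM scales it was -0.28 and -0.29 (FDR = 0.0280 and 0.0287, limma). Of the 4 S3 marker genes given above, *Cyp7b1* and *Atp11a* rose, while *Slc7a13* (log2 fold change 0.03) and *Slc5a1* (0.04) did not pass. *Atp11a* alone had a mean of 1107 CPM with vehicle and 1383 with SK-124. Whether S3 cells had a part in the rise of *Slc22a13* and *Slc22a19* was not tested.

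Organic cations enter proximal tubule cells through carriers such as OCT2 and leave through MATE1, a proton exchanger of the apical membrane. *Slc22a2*, the OCT2 gene, had 250.9, 289.3 and 358.5 CPM with vehicle and 260.9, 309.0 and 338.6 with SK-124. *Slc47a1*, the MATE1 gene, had 345.7, 374.6 and 391.5 CPM with vehicle and 339.7, 367.7 and 397.4 with SK-124. Both genes overlapped almost completely between the groups. Their 95% intervals on the log2 scale were -0.10 to 0.23 and -0.11 to 0.11, and each sign turned under at least 1 other setting.

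Of the 3 tested carnitine and zwitterion carriers, 2 fell and 0 rose, where 13.5% and 10.8% of all genes did. The 3 carrier genes lie side by side on chromosome 11 within 164 kb. *Slc22a4* encodes OCTN1, which carries ergothioneine. It fell from 20.04, 22.4 and 24.7 CPM with vehicle to 15.8, 17.5 and 20.7 CPM with SK-124, and 5 of 6 SK-124-treated mice lay under every vehicle mouse (log2 fold change -0.33 ± 0.07 SE, FDR = 0.00243, edgeR). The call held in all 25 other settings, and the value was -0.32 in SK-124-treated mice 1 to 3 and -0.33 in mice 4 to 6. *Slc22a5* encodes OCTN2, the carrier that reclaims carnitine. It had 91.3, 104.6 and 114.5 CPM with vehicle and 87.1, 98.9 and 104.7 with SK-124, with an interval of -0.22 to 0.04. Within a mouse, *Slc22a4* against *Slc22a5* moved by -0.24 on the log2 scale (exact permutation p = 0.0238, two-sided), which was 0.143 after adjustment over the 6 pairs, so the neighbours were not shown to differ. *Slc22a21*, a carnitine carrier gene near the detection limit, had 1.61, 1.91 and 2.27 CPM with vehicle and 1.17, 1.49 and 1.63 with SK-124 (log2 fold change -0.43 ± 0.15 SE, FDR = 0.0431, edgeR). This call held in 11 of 25 other settings and was lost without vehicle mouse 1, 2, 3 or 4 or SK-124-treated mouse 2, 3, 5 or 6 (-0.48 to -0.38 over all mice left out), and it rests on the estimated division of reads with *Slc22a5*.

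Among the other SLC22 genes, *Slc22a23* had one of the most stable changes of the set. Its protein has no settled substrate. It fell from 51.7, 65.8 and 77.2 CPM with vehicle to 32.5, 43.0 and 50.0 CPM with SK-124 (log2 fold change -0.67 ± 0.11 SE, FDR = 0.000175, edgeR). The groups did not overlap in CPM, and the exact permutation p was 0.00216 (two-sided), the smallest that 6 against 6 mice allow. In TPM they overlapped, at 8.28 to 17.6 with vehicle and 5.3 to 10.8 with SK-124. The log2 fold change was -0.67 in SK-124-treated mice 1 to 3 and -0.67 in mice 4 to 6, set against the same vehicle mice. The call held in all 25 other settings. *Slc22a17* encodes a receptor for lipocalin-2 and had 23.5, 27.5 and 30.9 CPM with vehicle and 21.8, 23.3 and 27.1 with SK-124. It was the 13th member past the threshold (log2 fold change -0.20 ± 0.07 SE, FDR = 0.0405, edgeR), and the call held in 13 of 25 other settings. With 1 mouse left out, it held without vehicle mouse 6 and without SK-124-treated mouse 2 and was lost without each of the other 10 (-0.24 to -0.16 over all mice left out). *Slc22a18*, an imprinted gene, had 313.3, 319.8 and 377.7 CPM with vehicle and 305.5, 329.1 and 344.7 with SK-124, with an interval of -0.13 to 0.10.

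The OATPs held the largest rise, and 3 of 8 tested genes rose while 1 fell, where 10.8% and 13.5% of all genes did. *Slco4a1* encodes a carrier of thyroid hormone and prostaglandins. It rose from 7.87, 9.59 and 10.3 CPM with vehicle to 9.52, 13.8 and 21.4 CPM with SK-124. The SK-124-treated mice were widely spread: mice 3 and 4 stood at 20.9 and 21.4, while mouse 2 stood at 9.52, within the vehicle range, and mouse 5 at 10.5, just above it (log2 fold change 0.71 ± 0.18 SE, FDR = 0.00662, edgeR). *Slco3a1*, whose protein also carries prostaglandins and thyroid hormone, rose from 138.1, 155.7 and 163.3 CPM with vehicle to 173.3, 196.0 and 205.5 CPM with SK-124. All 6 SK-124-treated mice exceeded all vehicle mice in CPM (log2 fold change 0.32 ± 0.06 SE, FDR = 0.000673, edgeR). In TPM the groups overlapped, at 46.7 to 52.0 with vehicle and 51.2 to 63.5 with SK-124. *Slco3a1* and *Slco4a1* failed the threshold on the TPM scales alone, with FDR from 0.0739 to 0.176 (limma). *Slco4c1* encodes the basolateral carrier of digoxin and uremic toxins, and rose from 23.8, 27.1 and 31.5 CPM with vehicle to 28.6, 31.5 and 39.6 CPM with SK-124. The groups overlapped in 3 SK-124-treated mice (log2 fold change 0.29 ± 0.09 SE, FDR = 0.0204, edgeR). The call was lost without vehicle mouse 6 (FDR = 0.0508) or SK-124-treated mouse 1 (FDR = 0.0502), and the value was 0.42 in SK-124-treated mice 1 to 3 and 0.15 in mice 4 to 6 (FDR = 0.27, edgeR). It was also lost with library totals (0.17, FDR = 0.143, edgeR) and on both TPM scales (0.11 and 0.13, FDR = 0.433 and 0.426, limma). *Slco4c1* overlaps *Panct2*, a gene on the opposite strand with a mean of 4.39 CPM (log2 fold change 0.27, FDR = 0.122, edgeR). The use of strand in counting is not given.

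*Slco2b1*, a carrier gene for steroid sulfates and many drugs, moved the other way. It fell from 12.6, 15.6 and 18.2 CPM with vehicle to 7.89, 9.84 and 11.8 CPM with SK-124, with no overlap between the groups (log2 fold change -0.67 ± 0.12 SE, FDR = 0.000404, edgeR). The value was -0.64 in SK-124-treated mice 1 to 3 and -0.70 in mice 4 to 6. The remaining OATPs did not pass. Of these, *Slco1a1* had an interval of 0.02 to 0.55 and *Slco1a4*, at 0.353 TPM, one of 0.09 to 1.15, both with an FDR above 0.05. *Slco2a1*, the prostaglandin transporter gene, had an interval of -0.05 to 0.19.

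Of the 17 tested genes of the ABC families, which include the channel subunit gene *Abcc9*, 3 fell and 0 rose, where 13.5% and 10.8% of all genes did. *Abcg2* encodes the breast cancer resistance protein, an apical pump for urate and drugs. Its CPM was 199.5, 216.7 and 231.8 with vehicle and 203.8, 212.1 and 230.5 with SK-124 with an interval of -0.13 to 0.11. It is the member whose window above holds the full response element. *Abcc2*, the gene of the apical pump MRP2, had an interval of -0.13 to 0.26, and *Abcc4*, the MRP4 gene, one of -0.31 to 0.18. Of the 7 tested MRP genes 0 passed. *Abcc6*, whose protein is a basolateral pump of the same family, missed the threshold (log2 fold change -0.30, FDR = 0.0927, edgeR). It passed as lower with library totals (-0.41, FDR = 0.0177), without vehicle mouse 6 (-0.38, FDR = 0.0222, edgeR) and on both TPM scales (FDR = 0.0149 and 0.0154, limma). *Abcb1a* and *Abcb1b*, the P-glycoprotein genes, were scarce at 0.578 and 1.19 TPM, with intervals of -0.34 to 0.20 and -0.39 to 0.36, and their balance moved by -0.02 (exact permutation p = 0.838, two-sided).

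*Abcg1*, whose protein moves cholesterol out of cells, had the largest fall of the set. Its CPM was 2.72, 4.15 and 4.69 with vehicle and 1.34, 2.16 and 2.66 with SK-124, with no overlap between the groups (log2 fold change -0.91 ± 0.17 SE, FDR = 0.000886, edgeR). The call held in all 25 other settings, and the value was -0.87 in SK-124-treated mice 1 to 3 and -0.95 in mice 4 to 6. In TPM the groups overlapped, at 0.44 to 1.3 with vehicle and 0.17 to 0.48 with SK-124. Macrophages are known to express *Abcg1*. Of 4 macrophage markers, *Cd68* fell (log2 fold change -0.60), *Cd14* rose (0.996) and 2 did not pass. Their summed level was 42.6 to 50.5 CPM with vehicle and 46.1 to 55.5 with SK-124. Most of this sum was *Csf1r*, which did not pass and had a mean of 36.8 CPM with vehicle and 41.6 with SK-124. Of 5 endothelial markers, *Kdr* fell (-0.85), and the sum was 262 to 349 CPM with vehicle and 211 to 330 with SK-124. The most abundant of them, *Plvap*, did not pass and had a mean of 158 CPM with vehicle and 136 with SK-124. The part of these cells in the falls of *Abcg1* and *Slco2b1* was not tested.

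The 5 ABCB genes of mitochondria and lysosomes gave 2 small falls, where 13.5% of all genes fell. *Abcb9* encodes a lysosomal peptide carrier and had 5.34, 6.73 and 7.70 CPM with vehicle and 4.55, 5.23 and 6.41 with SK-124 (log2 fold change -0.32 ± 0.11 SE, FDR = 0.0447, edgeR). *Abcb10* encodes a mitochondrial carrier and had 12.9, 14.7 and 15.3 CPM with vehicle and 11.04, 12.5 and 13.6 with SK-124 (log2 fold change -0.21 ± 0.06 SE, FDR = 0.0264, edgeR). 4 of 6 SK-124-treated mice lay under the vehicle range in either gene. The *Abcb9* call held in 13 of 25 other settings and was lost without vehicle mouse 1, 2, 3, 5 or 6 or SK-124-treated mouse 1, 2, 4 or 6 (-0.38 to -0.27 over all mice left out). The *Abcb10* call held in 17 of 25 and was lost without vehicle mouse 1, 2 or 4 or SK-124-treated mouse 3 or 6 (-0.24 to -0.17). *Abcb10* overlaps *Gm20388*, a gene on the opposite strand with a mean of 27.5 CPM.

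**Figure D3:**
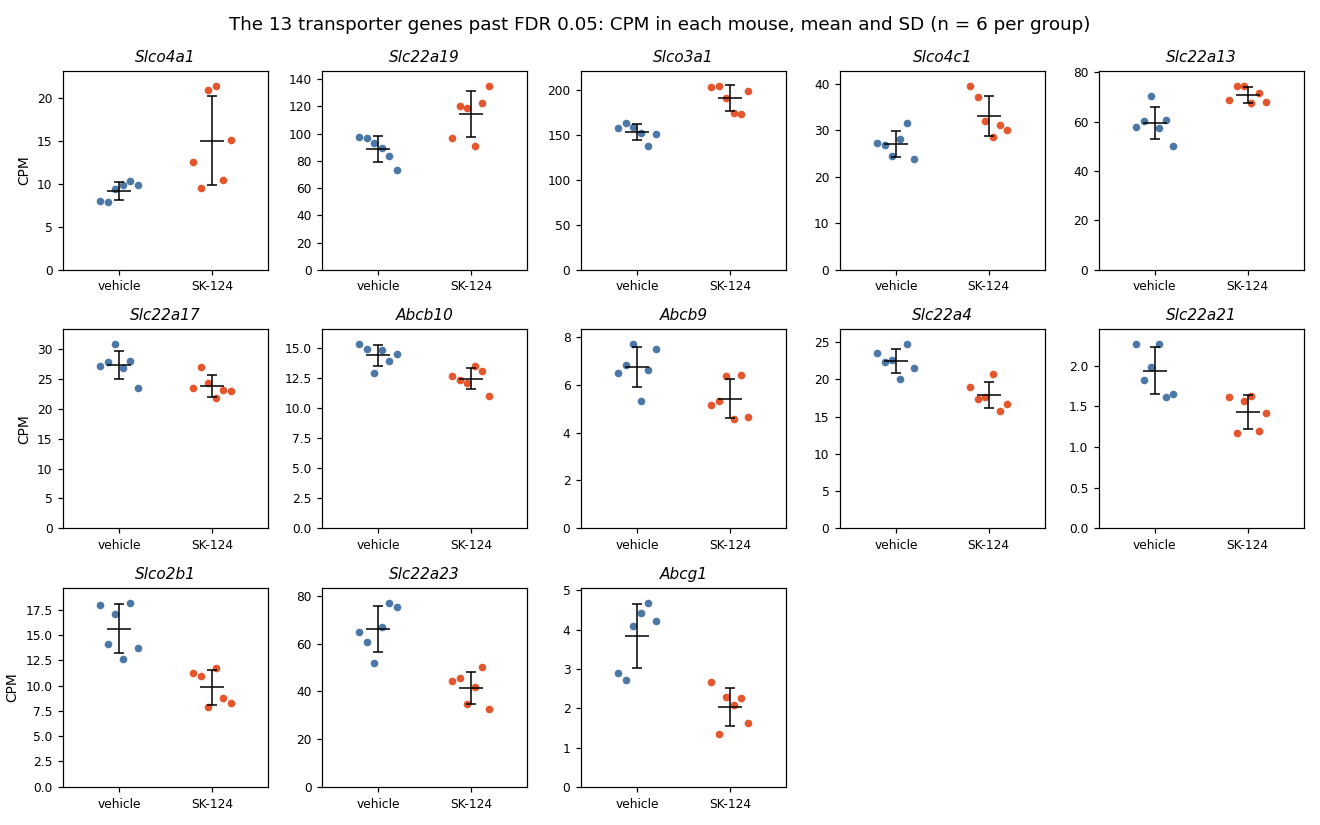
CPM in each mouse for the 13 transporter genes past an FDR of 0.05, from the largest rise (*Slco4a1*) to the largest fall (*Abcg1*). Blue points are vehicle-treated and red points SK-124-treated mice, bars give mean and SD (n = 6 per group), and each panel starts at 0. In CPM the groups do not overlap in *Slco3a1*, *Slco2b1*, *Slc22a23* and *Abcg1*, and in TPM this held for *Slco2b1* alone of these.

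Grouped by membrane, 1 of the 8 tested basolateral genes rose (*Slco4c1*) and 0 fell. Of 11 tested apical genes, 2 rose (*Slc22a13* and *Slc22a19*) and 1 fell (*Slc22a4*). The medians of their log2 fold changes were -0.04 and -0.01. Over all genes tested, 10.8% rose and 13.5% fell. Of the 10 genes with the highest TPM, 1 rose (*Slco3a1*) and 9 did not pass. The 95% intervals of those 9 lay between -0.25 and 0.40.

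Carriers of other families handle the same solutes or supply the gradients that drive exchange. Of 22 listed, 17 were tested, 2 rose and 5 fell, where 10.8% and 13.5% of all genes did. *Slc13a3* encodes the basolateral carrier that brings in the dicarboxylates which OAT1 and OAT3 exchange, and it fell from 379 to 405 CPM with vehicle to 272 to 358 with SK-124, with no overlap (log2 fold change -0.27 ± 0.06 SE, FDR = 0.00526, edgeR). *Slc13a2*, its apical counterpart for citrate, also fell (-0.33, FDR = 0.00446, edgeR). The 3 tested equilibrative nucleoside transporter genes fell as well: *Slc29a2* by 0.73, *Slc29a1* by 0.34 and *Slc29a3* by 0.34 on the log2 scale. *Slc16a9*, whose protein carries carnitine, rose with no overlap from 80.0 to 96.0 CPM with vehicle to 99.4 to 119.9 with SK-124 (0.31 ± 0.06 SE, FDR = 0.000937, edgeR). *Slc51b*, a subunit of the basolateral bile acid and steroid exporter, rose (0.45, FDR = 0.0137, edgeR).

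Of 20 listed transcription factors and scaffold proteins known to act on transporter genes or proteins, 19 were tested. Of these, 6 rose and 3 fell, where 10.8% and 13.5% of all genes did. *Nr1h4*, the bile acid receptor gene, rose from 48.8 to 99.5 CPM with vehicle to 107.8 to 145.3 with SK-124, with no overlap (log2 fold change 0.84 ± 0.15 SE, FDR = 0.000473, edgeR). *Stat5a* rose by a log2 fold change of 0.40 and *Stat5b* by 0.33, and *Bcl6*, which encodes a repressor, rose by 1.10 with overlapping groups. A smaller rise was called in *Nfe2l2* (0.20), which encodes a stress-response factor. The scaffold genes *Slc9a3r2* and *Slc9a3r1*, whose proteins tether apical carriers, fell by 0.41 and 0.25 on the log2 scale. Whether any of these changes bears on the transporter genes was not tested.

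**Figure D4:**
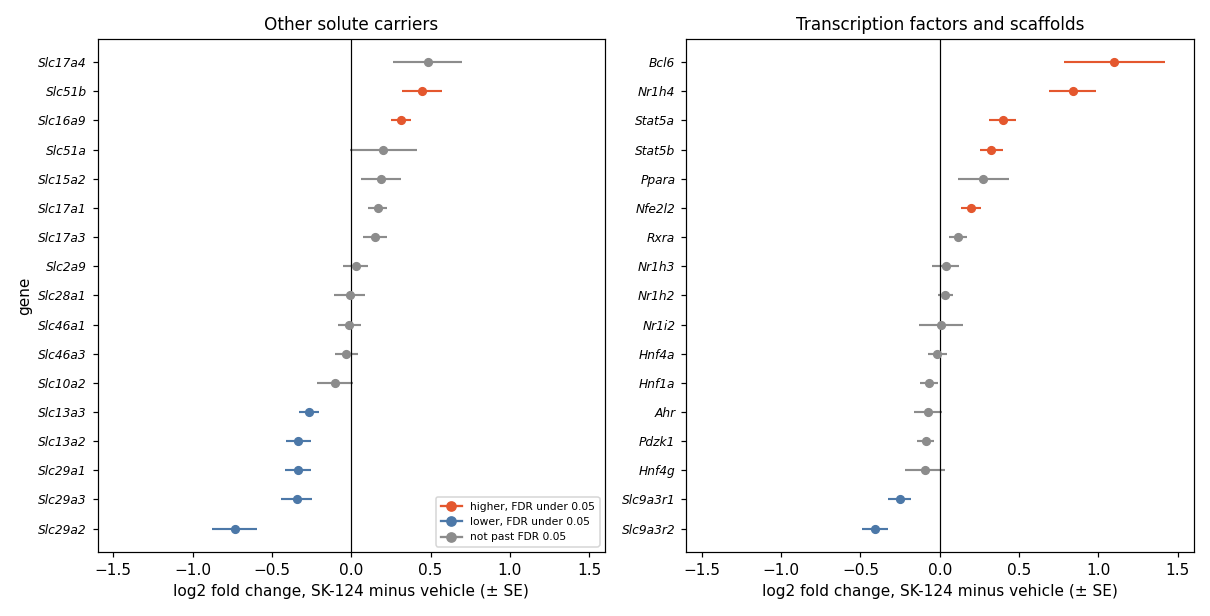
Log2 fold change (SK-124 minus vehicle, x axis) with standard error for the 17 tested carriers of other families (left) and for 17 of the 19 tested transcription factors and scaffolds (right). Red genes rose and blue genes fell at an FDR under 0.05. *Slc29a2* lies farthest to the left among the carriers, at -0.73, and *Bcl6* farthest to the right among the factors, at 1.10.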

How the data were processed

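Whole-kidney RNA of 12 mice, 6 for each treatment, was sequenced by the study on a BGISEQ instrument as 1 library per mouse. The authors deposited a gene table per mouse with RSEM expected counts (estimated reads, not normalised), TPM (scaled to gene length and library total) and a posterior mean count with its standard deviation. The submitters' processing notes name FastQC, STAR 2.7.2b, RSEM 1.3.0, DESeq2 and the build mm10. The annotation and the use of strand are not given in the sources used here. Identifiers were matched to GENCODE M21, built on GRCm38: 55141 of 55401 matched, 54349 of them in the same version, as did all transporter genes except *Slc22a29*.

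Rounded expected counts were scaled by TMM and filtered with filterByExpr, and treatments were compared with the quasi-likelihood test of edgeR, with FDR taken over the 14159 genes kept. SE is the absolute log2 fold change over the square root of F, and 95% intervals use the t distribution with the degrees of freedom of the fit. Levels between genes were compared on TPM. Single values, as log2(CPM + 0.5), were compared by exact permutation, two-sided. DESeq2, which the notes name without its settings, was run as an alternative. The p-values set the difference between the groups against the spread between these mice. The labels name no batch and do not say whether mice were handled apart. Any handling shared within a treatment therefore cannot be told apart from the treatment. Among 30 pairs of mice within a group the lowest chi-square was 4.69 per degree of freedom, so no library looked like a copy of another. Library totals were alike, and depth is limiting for genes of few counts.

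The transporter genes, classes and lists were chosen with earlier results of these data known. Genes with values are the 12 called members with the largest change and at least 1 CPM, the 10 with the highest TPM, fixed partner genes, and up to 6 called genes of each list. Also given, and chosen with their values in view, are *Slc22a17*, *Slc22a22*, *Slc22a28*, *Slc22a30*, *Slco1a1*, *Slco1a4*, *Slco2a1*, *Abcc2*, *Abcc4* and *Abcc6*. The same holds for the markers *Slc7a13*, *Slc5a1*, *Csf1r* and *Plvap*. 4 genes that these rules also cover are not reported here. Other settings were RLE scaling, library totals, no filter, at least 10 counts in every mouse, DESeq2, limma-voom, robust dispersion, unrounded counts, limma on log2(TPM + 1) and log2(TPM + 0.1), a replicate block, each mouse left out, and SK-124-treated mice 1 to 3 or 4 to 6 alone. The tests were also run on simulated counts with few changed genes, which does not address the dependence on scaling seen here. Coding sequences are the longest complete ones in GENCODE M21, aligned globally, and that of *Slc22a17* does not begin with ATG. Software was scipy 1.17.1, pandas 2.3.3, numpy 2.4.6 and Python 3.11.15, and DESeq2 1.42.0, limma 3.58.1 and edgeR 4.0.16 under R 4.3.3.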

Additional observations from a re-analysis of the deposited data

Results flagged for a closer look

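In 48 groups of 6 mice, 24 named genes in each treatment, the gap between an end value and its nearest neighbour was set against the whole range, and 3 groups exceeded Dixon's critical value for 6 values, where chance alone gives 2.4. Vehicle mouse 3 had 377.7 CPM of *Slc22a18*, above the 313.3 to 337.0 CPM of the other 5 vehicle mice. The same mouse had 536.8 CPM of *Slc22a8*, where the other 5 had 428.0 to 465.1 CPM. SK-124-treated mouse 2 had 523.6 CPM of *Slc22a8*, where the other 5 had 391.5 to 431.7 CPM. Neither gene passed the edgeR test with TMM scaling between the treatments with all 12 mice.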

How the results depend on the processing

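*Slc22a23*, *Slc22a4*, *Slco2b1* and *Abcg1* stayed below an FDR of 0.05 with the same sign in all 25 other settings. The 5 members called higher became 2 with library totals and 0 with limma on log2(TPM + 1) or log2(TPM + 0.1). The 8 called lower became 4 with no filter on low counts, 4 with SK-124-treated mice 1 to 3 alone and 5 with mice 4 to 6 alone, where each fit holds 3 treated mice. Leaving out 1 mouse gave 4 to 7 higher and 4 to 8 lower. Calls over all genes fell from 3454 to 2298 with SK-124-treated mice 1 to 3 alone, and ran from 2959 to 3942 with 1 mouse left out. The causes of these shifts were not tested. Deviations of same-numbered mice of the 2 groups correlated weakly (-0.13 to 0.22). Of the vehicle mice 2, and of the SK-124-treated mice 2, correlated best with their own number. These few values cannot exclude a pairing, and a replicate block gave 5 higher and 8 lower. Outside the settings that leave out 1 mouse, signs turned only for genes that did not pass. With library totals *Slc22a12* and *Slc22a2* came to -0.092 and -0.047. With log2(TPM + 1) they came to -0.14 and -0.081 and *Abcb1b* to 0.049, and with log2(TPM + 0.1) to -0.14, -0.082 and 0.081. *Slc47a1* came to 0.0052 with RLE scaling and 0.0051 with DESeq2. With SK-124-treated mice 1 to 3 alone, *Slc22a18* came to 0.027, *Slc22a6* to 0.011, *Slc47a1* to 0.047, *Abcg2* to 0.051, *Abcb1a* to 0.047 and *Abcb1b* to 0.24. With 1 mouse left out, signs turned within -0.016 to 0.050 for *Slc22a12*, -0.028 to 0.028 for *Slc22a18*, -0.060 to 0.0074 for *Slc22a6*, -0.025 to 0.021 for *Slc47a1*, -0.030 to 0.013 for *Abcg2* and -0.083 to 0.12 for *Abcb1b*.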
